A study of Mus musculus with 2 samples.

Results

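The 37 genes described here encode the enzymes and transporters of glycolysis, of the pentose phosphate pathway and of the entry of pyruvate into mitochondria. They were taken by symbol from a list of these functions, chosen with earlier results of these data known, and they are 37 of the 23946 genes named in the deposited counts. All 37 were found in at least 3 of the kept cells of both libraries together.

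Glycolysis turns glucose into pyruvate in the cytosol, and lactate dehydrogenase reduces pyruvate to lactate, which leaves cells through monocarboxylate transporters. The pentose phosphate pathway branches off after the hexokinase step and supplies ribose for nucleotides and NADPH, which the oxidative burst of phagocytes draws on. Neutrophils and activated macrophages are known for their glycolysis, while pyruvate carried into mitochondria feeds the pyruvate dehydrogenase complex, which is inhibited by its own kinases.

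Both libraries came from the hearts of female wild-type C57BL6 mice aged 8 to 16 weeks, of the J substrain by the study's methods. Live CD45+ cells were sorted from digested hearts. The ISO group, titled TTS, received 1 intraperitoneal dose of 200 mg/kg isoproterenol (ISO), a beta-adrenergic agonist, 24 hours earlier, and the Control group received vehicle. The deposited labels give the isoproterenol dose for both samples, so the Control group is known from its title and from the study's methods. Cells from 3 hearts were combined for each library, of which 15000 were loaded for 10x 3′ sequencing, which counts RNA molecules by unique molecular identifiers (UMIs).

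With 1 library in each group there were no replicates, no test between the groups could be made, and the libraries and the treatment cannot be told apart. The files hold 5927 Control and 5514 ISO barcodes, with 47382455 and 58495112 UMIs. The study's cell filters left 5641 Control and 5437 ISO cells, with medians of 4790 and 8537 UMIs and of 4.11% and 2.02% mitochondrial UMIs. The libraries shared 15 barcodes. Levels of genes are given as UMIs per 1000000 UMIs of a cell class (CPM), pairs of values give the Control library first, and ranges in parentheses are exact 95% intervals that cover counting error only. Each UMI stands for 1 RNA molecule read at its 3′ end, so levels were not divided by the length of the gene.

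The question was how these genes differ between the leukocyte classes of the heart and, within each class, between the ISO and the Control library. Cells were placed in classes by lists of marker genes that contain none of the 37 genes. The classes compared between the libraries held 100 and 28 neutrophils, 57 and 2100 classical monocytes, 108 and 48 nonclassical monocytes and 948 and 888 macrophages. Of the macrophages, 586 and 204 cells were placed by a list of resident macrophage genes (resident-list macrophages), and 360 and 144 cells were positive for no list of a macrophage subclass (other macrophages), while the remaining macrophages, most of those of the ISO library, are counted in the pooled class only. A further 152 and 820 barcodes were positive for the neutrophil list and for macrophage or monocyte lists. They are called dual-list neutrophils here for the lists they passed, not as a cell type, and whether each holds 1 cell was not tested. There were 40 and 76 type 1 and 42 and 210 type 2 conventional dendritic cells (cDC1 and cDC2), 1829 and 36 B cells, 168 and 26 T cells, 302 and 21 NK cells and 155 and 90 group 2 innate lymphoid cells (ILC2). The 2 and 42 dendritic cells positive for a Ccr7 list (Ccr7 DCs) were too few in the Control library and are described in the ISO library only. A class called highest for a gene is the highest of the 12 Control or 13 ISO classes that were ranked. Pooled macrophages and the remaining macrophages were not ranked, so most ISO macrophages stand outside these comparisons.

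Left out were 1565 and 753 barcodes positive for 2 or more lineages and 142 and 267 barcodes positive for no list, and cells of endothelial, fibroblast, mast cell and plasmacytoid dendritic cell lists were too few to describe. A UMI of Ptprc, which encodes CD45, was found in 91.0% (90.3% to 91.8%) of kept Control cells and 88.8% (88.0% to 89.7%) of kept ISO cells. The classes are not sharply separated in the ISO library: 125 and 1442 cells scored near the limit of the macrophage list and 58 and 323 near that of the neutrophil list. In nonclassical monocytes the classical monocyte list had a median score of 45.1% and 87.6% of that of its reference cells.

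Not every member can be counted in full. The main Gapdh transcript has 48 near-identical whole or partial copies in other annotated genes and that of Eno1 has 2, and 100% and 99% of their last 300 bases are copied, so their reads can match several places. In Ldhb 36.3% of these bases are copied, and Pgk1 has 3 copies that cover 68.8% of its transcript but not its end. The same holds for Pkm, with 1 copy over 65.5%, and for Pdhb, with 1 copy over 71.2%. Copies over smaller parts, again not at the end, were found for Pgam1 at 43.1%, Gpi1 at 36.3%, Mpc1 at 34.4% and Tpi1 at 19.3%. How reads with several matches were treated is not stated, and its part in the levels of these genes was not tested. Shares between isoforms that include Ldhb carry this limit.

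Of the glycolytic genes from aldolase to lactate dehydrogenase, Aldoa, Tpi1, Gapdh, Eno1, Pkm and Ldha were higher in the ISO than in the Control library in most classes. Tpi1 and Pkm were at least 2-fold higher in 12 of 13 classes each, Gapdh and Ldha in 11 of 13 each, Eno1 in 10 of 13 and Aldoa in 9 of 13. The liver-type phosphofructokinase gene Pfkl was so in 8 of the 12 classes where it had at least 20 UMIs over both libraries, the minimum for a ratio. In contrast, the glucose transporter gene Slc2a3 was at least 2-fold lower in 5 of 11 classes, the regulator gene Pfkfb4 in 4 of 9 and G6pdx, the entry to the pentose phosphate pathway, in 3 of 10. Centred on the median of all genes, Pfkfb4 in dual-list neutrophils and G6pdx in classical monocytes were under 2-fold. Part of the higher counts rests on lymphoid cells that also held macrophage RNA, as defined below, and without them T and NK cells were under the minimum size of a compared class. In the other 11 classes Tpi1 and Pkm were then at least 2-fold higher in 8 each and Gapdh in 7, against 10 each and 9 with all cells. Ldha and Eno1 were so in 9 of these classes each, Aldoa in 7 and Pfkl in 7 of 10, with or without those cells. Log2 ratios in the classes then under the minimum were -0.39 for Tpi1 in T cells and -0.23 for Eno1 in NK cells, both turned in sign, and that of Ldha in neutrophils was -1.14 with cells thinned to 1000 UMIs. The 13 classes count macrophages 3 times, pooled and as both compared subclasses, and all share the same 2 libraries.

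**Figure D1:**
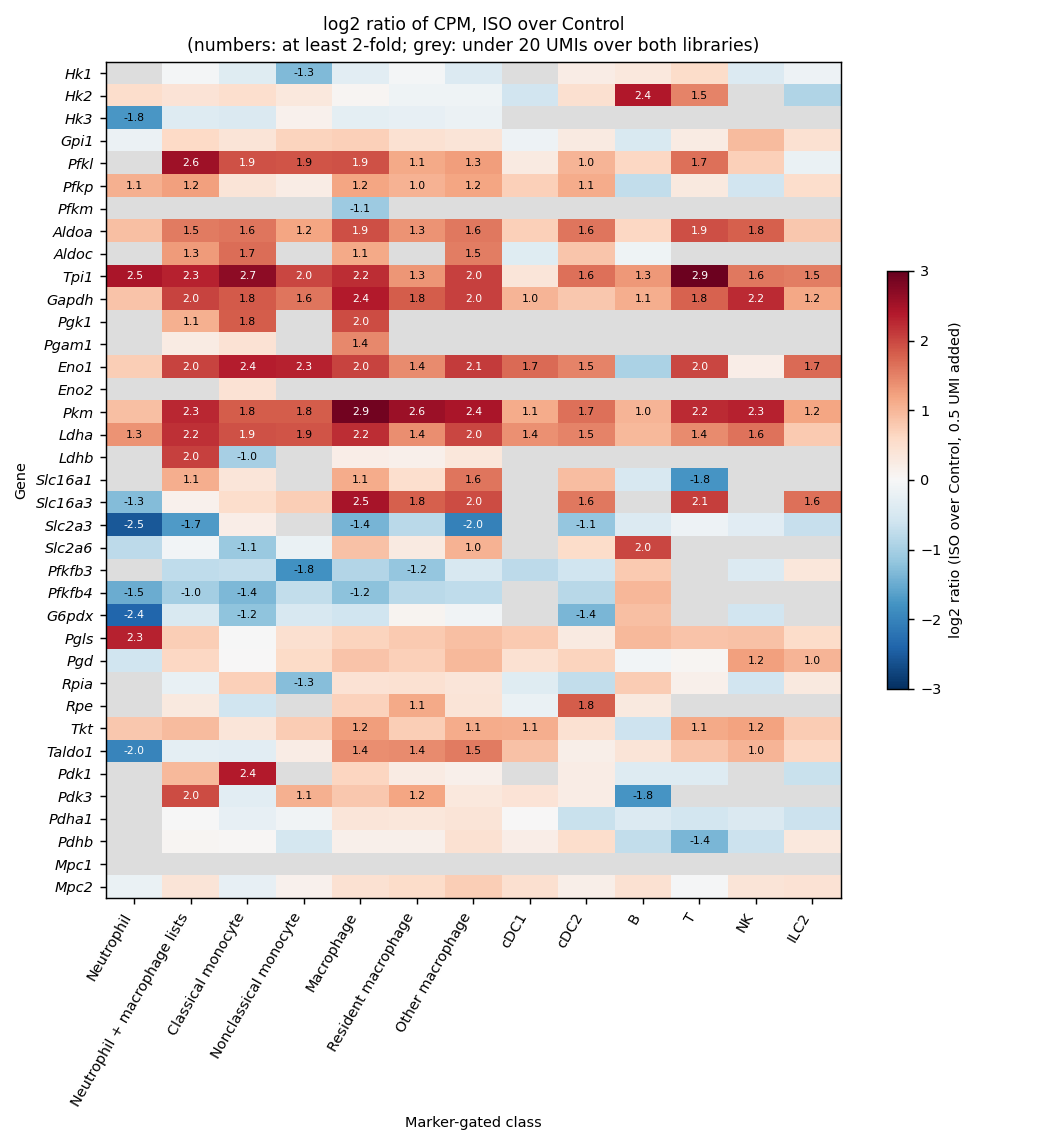
log2 ratio of CPM, ISO over Control, for the 37 genes (vertical) in the 13 classes compared (horizontal), with the number printed where the difference is at least 2-fold and grey where there were fewer than 20 UMIs over both libraries. Tpi1 and Pkm pass 2-fold in 12 of 13 classes with all cells counted, and Slc2a3 is at least 2-fold lower in 5 of 11.

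In macrophages, pooled and as subclasses, more members were at least 2-fold higher than lower. In macrophages, 15 of 35 members were at least 2-fold higher and 3 at least 2-fold lower, beside 8.41% and 18.4% of 11852 genes. In resident-list macrophages, 12 of 31 members were at least 2-fold higher and 1 at least 2-fold lower, beside 7.64% and 9.33% of 10423 genes. In other macrophages, 14 of 32 members were at least 2-fold higher and 1 at least 2-fold lower, beside 9.09% and 11.9% of 9022 genes. The median log2 ratio of the members was 0.80 in macrophages against -0.21 over all genes, 0.54 against -0.03 in resident-list macrophages and 0.82 against -0.03 in other macrophages. The macrophages of the libraries also differed in monocyte RNA: the 8 genes of the classical monocyte gate list summed to 225 and 2442 CPM in pooled, 206 and 1157 CPM in resident-list and 249.6 and 1457 CPM in other macrophages, led by Plac8 in the Control and by Chi3l3 in the ISO library, and the part of this difference in the members' counts was not tested. In pooled macrophages the macrophage gate list summed to 29943 and 14615 CPM. Mitochondrial genes took 4.44% of the UMIs of Control and 2.21% of those of ISO macrophages, and the part of both differences was likewise not tested. Together the 37 genes took 0.227% of the UMIs of Control macrophages and 0.683% of those of ISO macrophages. Neutrophils alone among the compared classes had a lower share in the ISO library, with 0.745% and 0.617%.

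In monocytes and neutrophils some members were at least 2-fold lower beside those that were higher. In classical monocytes, 10 of 35 members were at least 2-fold higher and 4 at least 2-fold lower, beside 11.6% and 21.5% of 11318 genes. In nonclassical monocytes, 8 of 26 members were at least 2-fold higher and 3 at least 2-fold lower, beside 9.55% and 13% of 6113 genes. The gate list of that class summed to 3162 and 1678 CPM there, and the macrophage gate list to 10119 and 6679 CPM. The classical monocyte gate list summed to 2463 and 3887 CPM, and the part of these differences in the members' counts was not tested. In dual-list neutrophils, 13 of 34 members were at least 2-fold higher and 2 at least 2-fold lower, beside 8.53% and 19.3% of 10970 genes. The other lists of the dual-list neutrophils differed between the libraries: the macrophage gate list summed to 22897 and 7733 CPM and the classical monocyte gate list to 738 and 7048 CPM, and the part of this in the members' counts was not tested. Median scores of that class were 111% and 90.6% of the reference for the neutrophil list, 128% and 57.1% for the macrophage list, and 21.9% and 103% for the classical monocyte list. The neutrophil list thus scored under the macrophage list in the Control library and under the classical monocyte list in the ISO library. In neutrophils, 4 of 20 members were at least 2-fold higher and 6 at least 2-fold lower, beside 20% and 19.1% of 2740 genes, so there the members stood close to the background in the higher direction. Median log2 ratios were 0.37 in classical monocytes, 0.40 in nonclassical monocytes, 0.61 in dual-list neutrophils and 0.17 in neutrophils, against -0.22, -0.04, -0.27 and -0.12 over all genes. The higher count in neutrophils was 13 of 33 with barcodes of 2 lineages kept, 7 of 21 with a gate limit of 60%, 7 of 25 with a minimum of 10 UMIs and 2 of 12 with 50, and 2 of 20 with each cell weighted alike, and over all alternatives the median reached at most 0.84. With each neutrophil thinned to 1000 UMIs, 0 of 9 members were higher and the median was -1.01, and thinning gave a median of 0.01 in classical monocytes. Shares over all genes under these alternatives are not given, so these counts have no background of their own.

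Among dendritic cells and lymphocytes most members that passed 2-fold were higher. In cDC1, 5 of 22 members were at least 2-fold higher and 0 at least 2-fold lower, beside 9.44% and 8.44% of 6115 genes, and the higher count was 3 of 22 with 5% free RNA subtracted and 8 of 27 with barcodes of 2 lineages kept. The classical monocyte gate list summed to 290.5 and 1220.1 CPM in cDC1 and 947 and 961 CPM in cDC2. In cDC2, 9 of 30 members were at least 2-fold higher and 2 at least 2-fold lower, beside 9.04% and 10.4% of 7702 genes. In B cells, 5 of 29 members were at least 2-fold higher and 1 at least 2-fold lower, beside 14.0% and 12.6% of 10052 genes, so the members stood close to the background in the higher direction, and the lower member, Pdk3, had 0 ISO UMIs and rests on the 0.5 UMI added. That higher count was 8 of 29 over totals without mitochondrial and ribosomal protein genes, and also 8 of 29 with under 10% mitochondrial UMIs. With barcodes of 2 lineages kept it was 10 of 31. In T cells, 10 of 23 members were at least 2-fold higher and 2 at least 2-fold lower, beside 14.1% and 13.5% of 5826 genes. In NK cells, 8 of 21 members were at least 2-fold higher and 0 at least 2-fold lower, beside 9.23% and 17.4% of 6768 genes. In ILC2, 6 of 23 members were at least 2-fold higher and 0 at least 2-fold lower, beside 9.44% and 6.42% of 6357 genes. This higher count in ILC2 was 0 of 23 without the 5% of cells with the most UMIs, 1 of 23 with a gate limit of 40% and 2 of 23 with each cell weighted alike. The medians were 0.43, 0.50, 0.39, 0.82, 0.72 and 0.53 in that order, against 0.08, -0.06, 0.02, 0.07, -0.13 and 0.10 over all genes. The counts under alternatives in cDC1, B cells and ILC2 are likewise given without shares over all genes.

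Some lymphoid cells also held macrophage RNA, and the counts in B cells, T cells and ILC2 differed without them, an alternative chosen after seeing the data. Left out were B, T, NK and ILC2 cells with UMIs of at least 3 of the 12 genes of the macrophage gate and check lists, called cells with macrophage RNA below. Without 17 Control and 5 of 26 ISO T cells, 4 of 21 members were at least 2-fold higher and 1 lower, beside 13.9% and 11.6% of 5239 genes, with a median of 0.15. Without 10 Control and 10 ISO ILC2, 1 of 23 was higher and 1 lower, beside 6.94% and 6.71% of 5796 genes, with a median of 0.30. In NK cells, 7 of 21 were then higher and 0 lower, beside 10.8% and 17.5% of 6532 genes, with a median of 0.31, after 16 Control and 5 ISO cells were left out. B cells had 3 of 29 higher and 4 lower, beside 14.4% and 12.2% of 9884 genes, with a median of 0.21, after 136 Control and 4 ISO cells were left out. The remaining 21 ISO T cells held 77830 UMIs and the 16 ISO NK cells 68569, under the minimum of 100000 UMIs of a compared class, so these T and NK values describe few molecules. Summed over all cells of a class, the 8 genes of the macrophage gate list were at 329 and 1842 CPM in T cells, 216 and 524 CPM in NK cells, 189 and 493 CPM in ILC2 and 551 and 2082 CPM in B cells, with Apoe the most abundant in each. The 8 genes of the classical monocyte gate list, which this alternative did not use, were at 298 and 1022 CPM in T cells, 867 and 452 CPM in NK cells, 43.2 and 361 CPM in ILC2 and 814 and 1183 CPM in B cells, led in ISO T cells and ILC2 by Chi3l3 at 734 and 168 CPM, and their part in the members' counts was not tested. The 4 check genes of the macrophage list, led by Ctsb, were at 208 and 1014 CPM in T cells, 62.2 and 425 CPM in NK cells, 75.3 and 465 CPM in ILC2 and 66.2 and 248 CPM in B cells.

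All genes together stood lower in the ISO library in several classes, and the members' counts were also taken relative to that shift. The median log2 ratio of all genes was -0.12 in neutrophils, -0.27 in dual-list neutrophils, -0.22 in classical monocytes, -0.21 in macrophages and -0.13 in NK cells. Centred on it, 6 members were at least 2-fold higher and 6 lower in neutrophils, 15 and 1 in dual-list neutrophils, 10 and 1 in classical monocytes, 18 and 2 in macrophages, and 10 and 0 in NK cells. Of all genes, 21.9% were then at least 2-fold higher and 16.8% lower in neutrophils, 13.2% and 12.5% in dual-list neutrophils, 15.6% and 15.8% in classical monocytes, 12.3% and 13.5% in macrophages, and 11.9% and 14.4% in NK cells. In cDC1 and ILC2, where the median of all genes was above 0, centring left 4 of 22 and 5 of 23 members at least 2-fold higher. In these classes 0 and 1 members were then at least 2-fold lower. The shares over all genes were 7.88% higher and 9.94% lower in cDC1, and 7.68% and 7.82% in ILC2. The centring moved the share of higher genes among all genes past 2-fold from 30.7% to 51.4% in dual-list neutrophils, from 35.1% to 49.6% in classical monocytes, from 31.4% to 47.6% in macrophages and from 34.7% to 45.1% in NK cells. The gene model Gm26924 took 5.85% of the UMIs of Control macrophages and 1.27% of those of ISO macrophages.

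**Figure D2:**
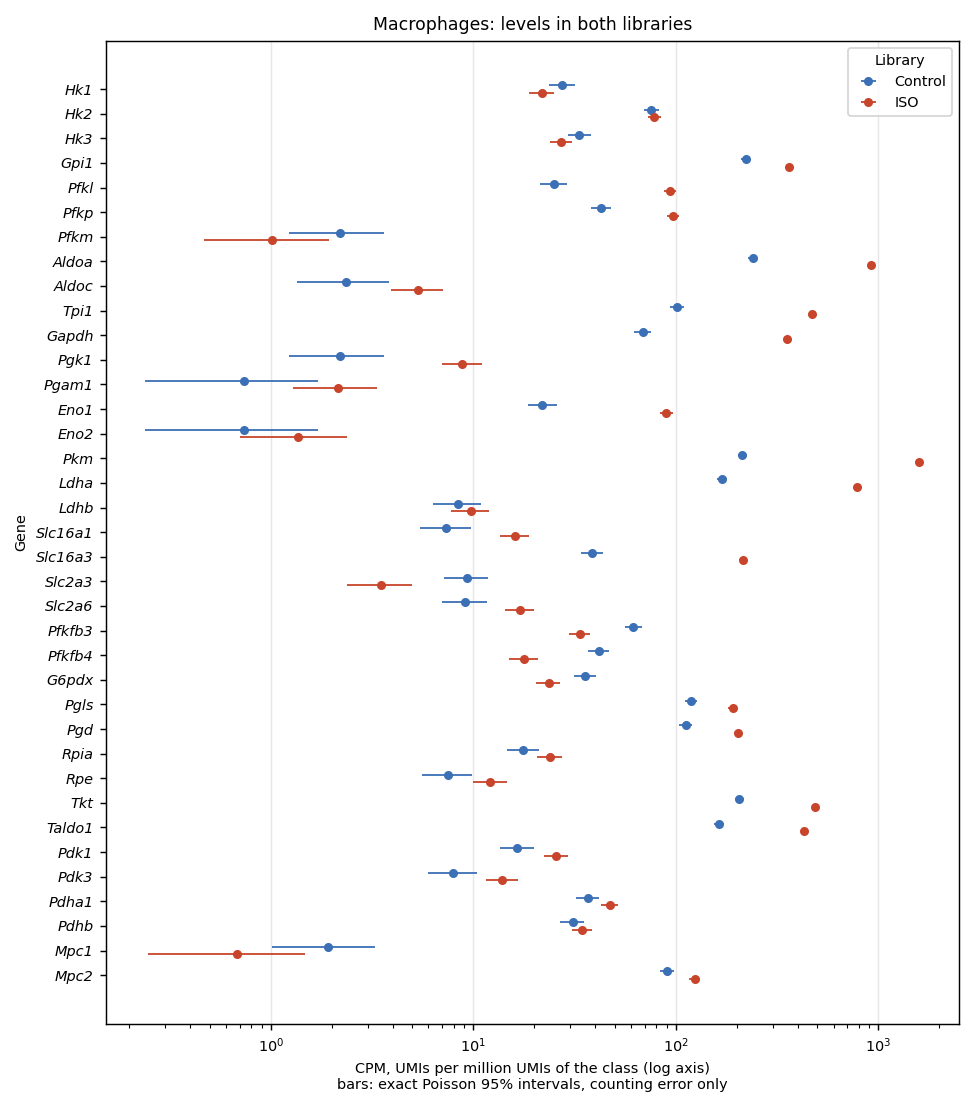
Levels of the 37 genes in macrophages of the Control (blue) and ISO (red) library, in CPM on a log axis, with exact Poisson 95% intervals that cover counting error only. Pkm stands at 213 and 1589 CPM, and Slc2a3 at 9.27 and 3.50 CPM.

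Glucose enters cells through transporters of the SLC2 family, and the levels of both members of that family were highest in neutrophils of either library. Slc2a3, which encodes the high-affinity transporter GLUT3, was highest in the Control library in neutrophils at 410.1 CPM (337 to 494), with an interval apart from that of dual-list neutrophils at 117 CPM. In the ISO library its highest level was in neutrophils at 68.2 CPM (34.0 to 122), with an interval overlapping that of NK cells at 45.2 CPM. Slc2a3 stood at 410.1 and 68.2 CPM in neutrophils, 117 and 36.1 in dual-list neutrophils, 9.27 and 3.50 in macrophages, 9.68 and 1.95 in other macrophages, and 15.6 and 7.28 in cDC2, all at least 2-fold lower in the ISO library, while NK cells had 62.2 and 45.2 CPM. Few molecules stand behind some of these values, with 23 and 2 UMIs in other macrophages and 7 and 14 in cDC2. The log2 ratio of Slc2a3 was -2.53 (-3.63 to -1.69) in neutrophils and -1.70 (-1.95 to -1.44) in dual-list neutrophils. Slc2a6, which encodes GLUT6 of the same family, was highest in the Control library in neutrophils at 164 CPM (119 to 220.2), with an interval apart from that of classical monocytes at 58.0 CPM, and in the ISO library in neutrophils at 92.9 CPM (52.0 to 153), with an interval overlapping that of Ccr7 DCs at 67.9 CPM. It was lower in ISO classical monocytes, with 58.0 and 27.4 CPM in classical monocytes, and 51.4 and 44.0 in nonclassical monocytes, and higher in other macrophages, with 11.4 and 23.4 CPM. Of the UMIs of both genes, Slc2a3 held 50.4% (41.3% to 59.5%) in Control and 17.1% (11.9% to 23.4%) in ISO macrophages, and 70.1% (64.3% to 75.5%) and 43.4% (40% to 46.8%) in dual-list neutrophils.

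Slc2a1, which encodes GLUT1 and is not among the 37 genes, differed in the other direction in most classes. Slc2a1 stood at 32.8 and 104 CPM in macrophages, 75.4 and 169.7 in classical monocytes, 52.9 and 149.9 in dual-list neutrophils, and 28.6 and 54.6 in resident-list macrophages. In neutrophils it was at 160.3 and 105 CPM, lower in the ISO library as Slc2a3 was.

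Hexokinase traps glucose in the cell as glucose 6-phosphate, and its 3 genes led in different leukocytes. Hk1, the ubiquitous form, was highest in the Control library in NK cells at 53.2 CPM (40.5 to 68.6), with an interval overlapping that of ILC2 at 48.7 CPM, and in the ISO library in T cells at 54.6 CPM (22.0 to 113), with an interval overlapping that of ILC2 at 43.2 CPM. Hk1 stood at 53.2 and 36.1 CPM in NK cells, and 35.2 and 12.9 in nonclassical monocytes, and nonclassical monocytes were alone among 11 classes in passing 2-fold. Hk2, the inducible form, was highest in the Control library in cDC1 at 92.5 CPM (68.7 to 122), with an interval overlapping that of other macrophages at 84.2 CPM, and in the ISO library in classical monocytes at 101 CPM (96.2 to 105), with an interval overlapping that of Ccr7 DCs at 95.6 CPM. Hk2 had similar levels in both libraries in macrophages, with 75.6 and 78.3 CPM in macrophages, 71.3 and 64.5 in resident-list macrophages, and 84.2 and 76.9 in other macrophages. It was lower in the ISO library with 92.5 and 62.5 CPM in cDC1, and 54.3 and 27.9 in ILC2, and higher in B cells, where it had 11.4 and 56.7 CPM and a log2 ratio of 2.40 (1.06 to 3.37) on 8 ISO UMIs. Hk3, a form of myeloid cells, was highest in the Control library in neutrophils at 134 CPM (94.0 to 186), with an interval apart from that of dual-list neutrophils at 57.3 CPM, and in the ISO library in dual-list neutrophils at 44.2 CPM (40.2 to 48.4), with an interval overlapping that of neutrophils at 37.2 CPM. Hk3 stood at 134 and 37.2 CPM in neutrophils, and 57.3 and 44.2 in dual-list neutrophils, with log2 ratios of -1.76 (-3.39 to -0.59) and -0.38 (-0.70 to -0.04).

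As shares of all hexokinase UMIs, Hk1 held 85.5% (75.0% to 92.8%) in Control NK cells, 63.6% (56.6% to 70.2%) in B cells and 59.6% (45.8% to 72.4%) in T cells. Hk2 held 86.2% (74.6% to 93.9%) in Control and 82.5% (70.9% to 90.9%) in ISO cDC1, and it led the hexokinases of every monocyte, macrophage and dendritic class in both libraries. In classical monocytes the Hk2 shares were 52.9% (40.4% to 65.2%) and 67.4% (65.7% to 69.1%). Hk3 held 65.5% (51.4% to 77.8%) in Control neutrophils and 24% (9.36% to 45.1%) in ISO neutrophils. Of the 206 hexokinase UMIs in Control B cells 0 came from Hk3, which allows a share of up to 1.77%.

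Gpi1, encodes the isomerase that feeds fructose phosphate to the next step. Its highest levels were in the Control library in neutrophils at 347 CPM (279.9 to 425), with an interval overlapping that of classical monocytes at 299.6 CPM, and in the ISO library in classical monocytes at 392 CPM (383 to 401), with an interval overlapping that of dual-list neutrophils at 381 CPM. Gpi1 was past 2-fold in none of 13 classes, with 221 and 362 CPM in macrophages, 299.6 and 392 in classical monocytes, and 114 and 217 in NK cells. The levels were lower in the ISO library with 296 and 268 CPM in cDC1, and 171 and 120.4 in B cells.

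Phosphofructokinase commits sugar to glycolysis, and its liver-type gene Pfkl took a larger share in ISO than in Control monocytes. Pfkl was highest in the Control library in ILC2 at 44.3 CPM (31.6 to 60.3), with an interval overlapping that of cDC1 at 42.6 CPM, and in the ISO library in nonclassical monocytes at 122 CPM (89.4 to 162), with an interval overlapping that of classical monocytes at 113 CPM. The values of Pfkl were 14.8 and 88.3 CPM in dual-list neutrophils, 29.0 and 113 in classical monocytes, 32.5 and 122 in nonclassical monocytes, 25 and 94.0 in macrophages, and 22.9 and 50.7 in resident-list macrophages. Its log2 ratios were 2.55 (1.997 to 3.23) in dual-list neutrophils, 1.92 (1.24 to 2.81) in classical monocytes and 1.91 (1.67 to 2.16) in macrophages. Pfkp, the platelet-type gene, was highest in dendritic cells, in the Control library in cDC1 at 209 CPM (172 to 251), with an interval overlapping that of NK cells at 206 CPM, and in the ISO library in cDC2 at 357 CPM (330.5 to 384), with an interval overlapping that of cDC1 at 346 CPM. Pfkp stood at 165 and 357 CPM in cDC2, 42.6 and 96.4 in macrophages, and 70.8 and 149 in neutrophils, and it was lower in the ISO library in NK cells, with 206 and 136 CPM. The muscle-type gene Pfkm was near 0, and its highest levels were in Control classical monocytes (7.73 CPM on 4 UMIs) and ISO NK cells (9.04 CPM on 1 UMI). The Pfkl share of phosphofructokinase UMIs was 19.2% (11.2% to 29.7%) and 43.1% (41.7% to 44.4%) in classical monocytes, 23.5% (15.7% to 33.0%) and 50% (39.5% to 60.5%) in nonclassical monocytes, and 21.1% (14.0% to 29.7%) and 40.9% (38.8% to 43.0%) in dual-list neutrophils. In resident-list macrophages it was 34.6% (29.1% to 40.4%) and 37.2% (31.2% to 43.6%), with overlapping intervals. In other macrophages the intervals also overlapped, at 36.8% (29.6% to 44.4%) and 38.6% (31.3% to 46.3%). In pooled macrophages the Pfkl share was 35.8% (31.5% to 40.3%) and 49.1% (46.7% to 51.5%), with intervals apart. Dendritic cells had mostly Pfkp in both libraries, with 84.1% (74.8% to 91.0%) and 86.1% (83.5% to 88.4%) in cDC2.

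Pfkfb3 and Pfkfb4 encode bifunctional enzymes that set the level of the sugar phosphate activator of phosphofructokinase, and their levels were lower in the ISO library in most myeloid classes. Pfkfb3 was highest in the Control library in dual-list neutrophils at 75.1 CPM (62.4 to 89.7), with an interval overlapping that of resident-list macrophages at 69.3 CPM, and in the ISO library in Ccr7 DCs at 47.8 CPM (28.8 to 74.7), with an interval overlapping that of dual-list neutrophils at 44.3 CPM. It stood at 61.6 and 33.4 CPM in macrophages, 69.3 and 30.9 in resident-list macrophages, 67.7 and 18.1 in nonclassical monocytes, 65.7 and 40.5 in classical monocytes, and 75.1 and 44.3 in dual-list neutrophils. The log2 ratio was -0.88 (-1.10 to -0.66) in macrophages and -1.81 (-3.29 to -0.75) in nonclassical monocytes. Pfkfb4 was highest in neutrophils of the Control library, at 164 CPM, with an interval apart from that of dual-list neutrophils, and its highest ISO level was in neutrophils at 55.8 CPM (25.5 to 106), with an interval overlapping that of dual-list neutrophils at 31.3 CPM. Pfkfb4 stood at 164 and 55.8 CPM in neutrophils, 63.4 and 31.3 in dual-list neutrophils, 40.6 and 16.3 in classical monocytes, and 41.5 and 17.7 in macrophages, at least 2-fold lower in the ISO library in each. In dual-list neutrophils it was under 2-fold when centred on the median of all genes. Pfkfb4 held 83.0% (70.2% to 91.9%) of the UMIs of the pair in Control neutrophils, against 40.2% (36.6% to 44.0%) in Control macrophages and 34.7% (30.3% to 39.2%) in ISO macrophages.

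**Figure D3:**
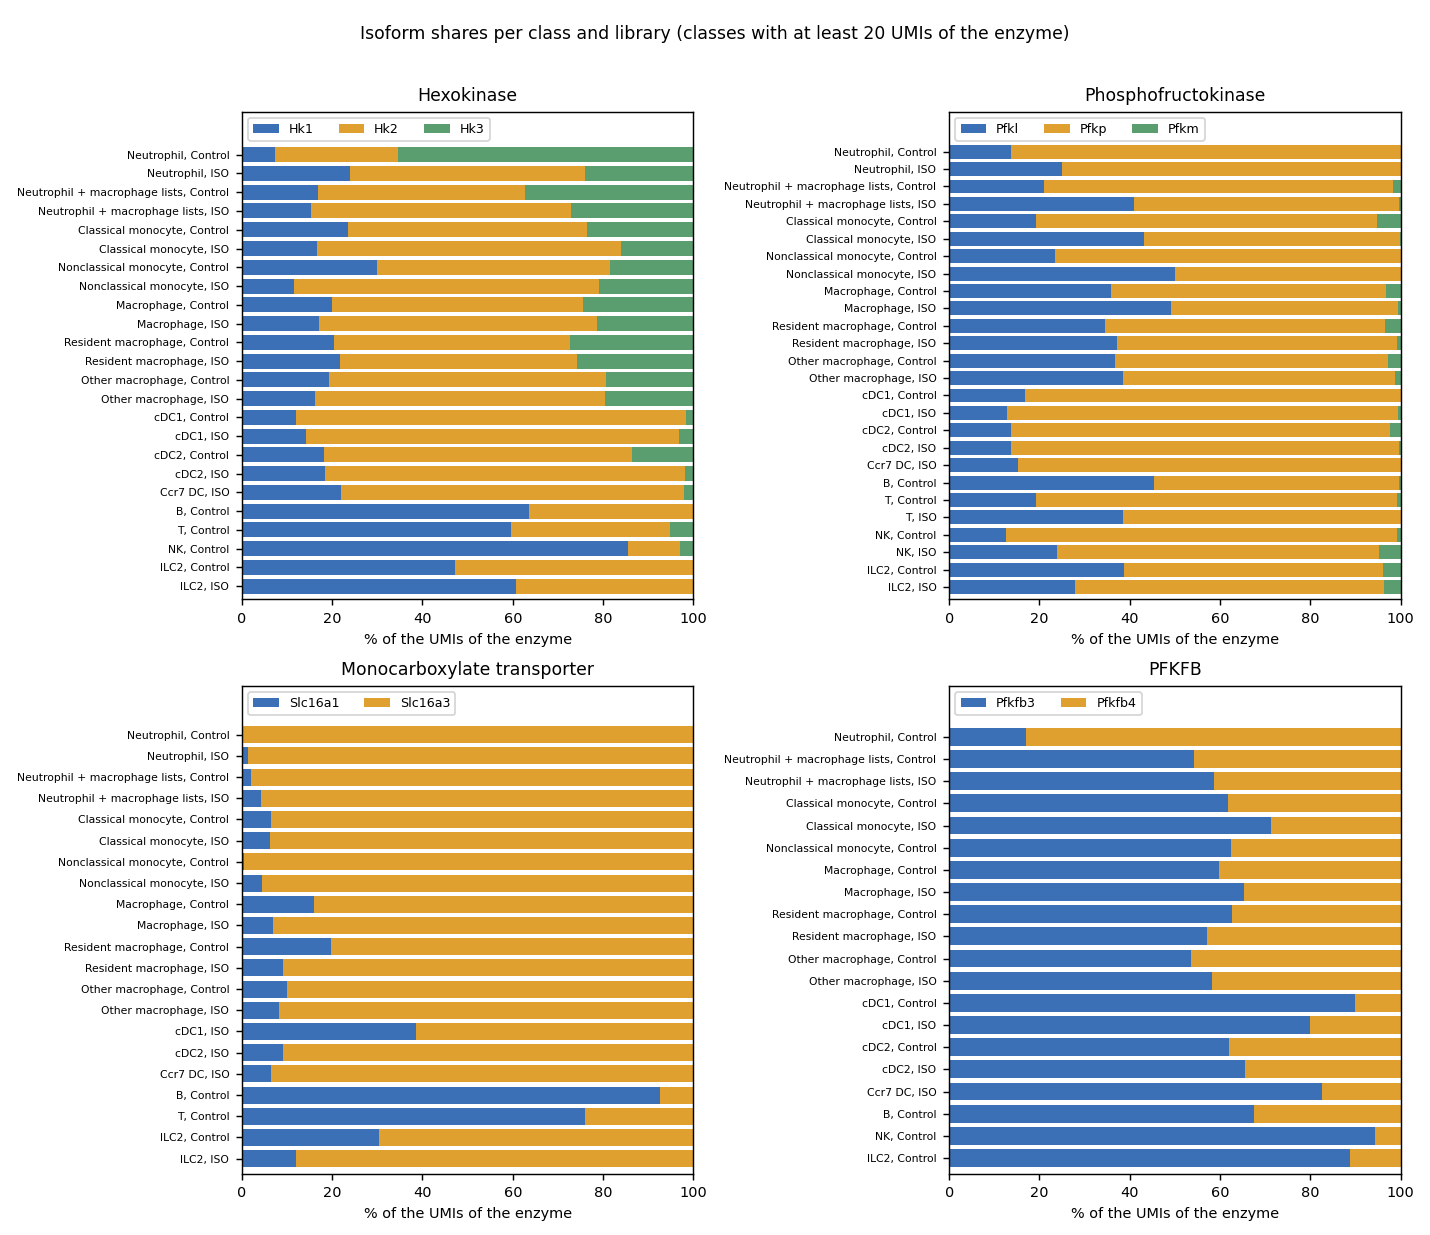
Shares of each isoform gene among the UMIs of its enzyme (horizontal, %) per class and library (vertical) for hexokinase, phosphofructokinase, the monocarboxylate transporters and PFKFB, in classes with at least 20 UMIs of the enzyme. Hk1 takes 85.5% of the hexokinase UMIs in Control NK cells, and Pfkl takes 19.2% of the phosphofructokinase UMIs in Control and 43.1% in ISO classical monocytes.

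Aldolase splits a doubly phosphorylated sugar, and Aldoa, its muscle and blood cell form, held nearly all aldolase UMIs. Aldoa was higher in the ISO library in all 13 classes, by at least 2-fold in 9. It stood at 239 and 919 CPM in macrophages, 198 and 604 in cDC2, and 436 and 818 in neutrophils. Aldoa was also at 199 and 757 CPM in T cells, and 178 and 614 in NK cells, or 183 and 308 CPM in T cells and 176 and 452 in NK cells without cells with macrophage RNA. The highest levels of Aldoa in the ranked Control classes were in ILC2 at 459 CPM (415 to 505), with an interval overlapping that of neutrophils at 436 CPM. In the ranked ISO classes they were in classical monocytes at 932 CPM (919 to 946), with an interval overlapping that of neutrophils at 818 CPM. Pooled ISO macrophages, which were not ranked, stood at 919 CPM. Aldoc, the brain form, was highest in the dendritic cells of both libraries, in cDC1 at 18.5 CPM (8.87 to 34.0), with an interval overlapping that of cDC2 at 8.92 CPM and in cDC2 at 17.7 CPM (12.2 to 24.7), with an interval overlapping that of cDC1 at 14.4 CPM. Its share of aldolase UMIs was 7.81% (3.81% to 13.9%) in Control and 3.83% (2% to 6.60%) in ISO cDC1, against 0.973% (0.557% to 1.58%) and 0.574% (0.422% to 0.763%) in macrophages. In classical monocytes Aldoc had 0 Control UMIs and 60 ISO UMIs, so that its place among the higher members there rests on the 0.5 UMI added, and against a floor of 3 UMIs, 5.80 CPM, it gives no fold. Without Aldoc and Eno2, both at 0 UMIs in Control classical monocytes, 9 of 33 members were at least 2-fold higher there and 4 lower, with a median of 0.36, an alternative chosen after seeing the data.

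Triose phosphate isomerase, the product of Tpi1, pools both products of the split sugar, and Tpi1 was at least 2-fold higher in the ISO library in every class compared but cDC1 when all cells were counted. Tpi1 stood at 101 and 471 CPM in macrophages, 89.7 and 369 in other macrophages, 79.2 and 514 in classical monocytes, 96.1 and 386 in nonclassical monocytes, and 85.0 and 425 in dual-list neutrophils. Further values were 48.5 and 273 CPM in neutrophils, 106 and 264 in resident-list macrophages, 82.5 and 262 in cDC2, 41.9 and 99.2 in B cells, and 94.7 and 280.1 in NK cells. In cDC1 it was at 135 and 176 CPM. The log2 ratio of Tpi1 was 2.68 (2.26 to 3.18) in classical monocytes and 2.22 (2.10 to 2.34) in macrophages. In T cells, Tpi1 was at 41.4 and 319.9 CPM, but without cells with macrophage RNA it was at 41.6 and 25.7 CPM, on 2 ISO UMIs, and the log2 ratio was -0.39. ILC2 had 77.5 and 223 CPM, and 77.8 and 138 CPM without such cells, which gave 41.7 and 54.2 CPM in B cells and 95.6 and 219 in NK cells. Its highest Control level was in cDC1 at 135 CPM (106 to 169.8), with an interval overlapping that of resident-list macrophages at 106 CPM. Of the ranked ISO classes, classical monocytes were highest at 514 CPM (504 to 524), with an interval apart from that of dual-list neutrophils at 425 CPM. Pooled ISO macrophages, which were not ranked, stood between these at 471 CPM.

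Gapdh encodes the dehydrogenase that reduces NAD in glycolysis, and it was higher in the ISO library in all 13 classes, although its many copies leave its true level unknown. It stood at 68.4 and 355 CPM in macrophages, 64.5 and 226 in resident-list macrophages, 74.1 and 307 in other macrophages, and 102 and 372 in classical monocytes. In lymphocytes and dendritic cells the values of Gapdh were 44.7 and 92.1 CPM in B cells, 42.4 and 199 in NK cells, 82.0 and 183 in ILC2, and 102 and 208 in cDC1. Without cells with macrophage RNA Gapdh was at 44.7 and 81.4 CPM in B cells, 44.9 and 87.5 in NK cells and 75.5 and 110.3 in ILC2. Its log2 ratio was 2.37 (2.23 to 2.52) in macrophages and 2.25 (1.43 to 2.99) in NK cells. Gapdh was highest in the ranked Control classes in cDC2 at 154 CPM (119.7 to 195), with an interval overlapping that of nonclassical monocytes at 103 CPM. In the ranked ISO classes it was highest in classical monocytes at 372 CPM (363 to 380.2), with an interval overlapping that of nonclassical monocytes at 313 CPM. Pooled ISO macrophages, which were not ranked, stood at 355 CPM.

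The next enzymes, phosphoglycerate kinase and mutase, had few UMIs. Pgk1 was highest in Control T cells (9.21 CPM) and ISO nonclassical monocytes (12.9 CPM on 5 UMIs), and in macrophages it was at 2.21 and 8.81 CPM, with a log2 ratio of 1.96 (1.19 to 2.90). Pgam1 was highest in Control cDC2 (2.23 CPM on 1 UMI) and ISO B cells (7.08 CPM on 1 UMI), and was at 0.735 and 2.15 CPM in macrophages. Eno1, the ubiquitous enolase, was higher in the ISO library in 12 of 13 classes. Eno1 stood at 21.3 and 113 CPM in classical monocytes, 27.1 and 137 in nonclassical monocytes, 25.2 and 104 in dual-list neutrophils, 24.1 and 64.0 in resident-list macrophages, and 18.1 and 77.9 in other macrophages. Lymphoid values were 58.6 and 63.2 CPM in NK cells, 21.9 and 85.8 in T cells, 21 and 68.6 in ILC2, and 34.1 and 14.2 in B cells, lower in the ISO library in B cells on 2 ISO UMIs, or 59.3 and 43.8 CPM in NK cells, 20.8 and 64.2 in T cells, 21.6 and 51.7 in ILC2 and 33.8 and 9.04 in B cells without cells with macrophage RNA. Its highest levels were in the Control library in NK cells at 58.6 CPM (45.2 to 74.7), with an interval overlapping that of neutrophils at 41.0 CPM, and in the ISO library in nonclassical monocytes at 137 CPM (103 to 179.5), with an interval overlapping that of classical monocytes at 113 CPM. Eno2, the neuronal enolase, was near 0 in all classes, with its highest levels in Control cDC2 (2.23 CPM on 1 UMI) and ISO other macrophages (1.95 CPM on 2 UMIs).

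Pyruvate kinase, the product of Pkm, makes pyruvate in the last step of glycolysis, and Pkm was higher in the ISO library in all 13 classes. It stood at 213 and 1589 CPM in macrophages, 203 and 1212 in resident-list macrophages, and 225 and 1227 in other macrophages, with log2 ratios of 2.90 (2.82 to 2.98), 2.57 (2.46 to 2.69) and 2.45 (2.30 to 2.60). Monocytes and neutrophils had 510.2 and 1804 CPM in classical monocytes, 367 and 1292 in nonclassical monocytes, 330.0 and 1581 in dual-list neutrophils, and 570.5 and 1066 in neutrophils. In dendritic cells Pkm was at 290.5 and 627 CPM in cDC1, and 309.8 and 982 in cDC2. Neutrophils alone were under 2-fold in the counts of all cells, with a log2 ratio of 0.90 (0.58 to 1.23). Lymphoid values of Pkm were 113 and 227 CPM in B cells, 241 and 1139 in T cells, 179 and 876 in NK cells, and 310.1 and 708 in ILC2. Without cells with macrophage RNA, they were 113 and 127 CPM in B cells, 208 and 437 CPM in T cells, 184 and 481 in NK cells, and 309 and 410.2 in ILC2. Pkm was highest in the ranked Control classes in neutrophils at 570.5 CPM (484 to 668), with an interval overlapping that of classical monocytes at 510.2 CPM. In the ranked ISO classes it was highest in classical monocytes at 1804 CPM (1785 to 1823), with an interval apart from that of dual-list neutrophils at 1581 CPM. Pooled ISO macrophages, which were not ranked, stood at 1589 CPM, and the macrophages of no reported subclass were not compared.

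Lactate dehydrogenase is a tetramer of subunits from Ldha, which prevail in glycolytic tissues, and from Ldhb, and Ldha held most of the UMIs in every class. Ldha was higher in the ISO library in all 13 classes, with 169 and 781 CPM in macrophages, 154 and 615 in other macrophages, 249 and 947 in classical monocytes, 206 and 756 in nonclassical monocytes, and 166 and 757 in dual-list neutrophils. Further values of Ldha were 279.6 and 713 CPM in neutrophils, 365 and 946 in cDC1, 301 and 849.5 in cDC2, and 248 and 759 in NK cells, the last 246 and 539.6 CPM without cells with macrophage RNA. The log2 ratio was 2.21 (2.12 to 2.30) in macrophages, and in neutrophils it was 1.35 (0.92 to 1.79) from all UMIs but -1.14 with each cell thinned to 1000 UMIs. ILC2 had the highest level of Ldha in both libraries, at 601 CPM (552 to 654), with an interval apart from that of cDC1 at 365 CPM in Control cells, and at 1031 CPM (933 to 1136), with an interval overlapping that of classical monocytes at 947 CPM in ISO cells, but without cells with macrophage RNA ILC2 were at 617 and 834 CPM, the latter under that of ISO classical monocytes. Ldhb was highest in the Control library in classical monocytes at 38.7 CPM (23.6 to 59.7), with an interval overlapping that of T cells at 19.6 CPM, and in the ISO library in neutrophils at 24.8 CPM (6.75 to 63.5), with an interval overlapping that of classical monocytes at 19.8 CPM. Its share of lactate dehydrogenase UMIs was 13.4% (8.40% to 20%) in Control and 2.05% (1.85% to 2.26%) in ISO classical monocytes, and 4.72% (3.59% to 6.07%) and 1.23% (0.984% to 1.52%) in macrophages. In T cells this share was 6.67% (3.93% to 10.5%) and 2.08% (0.253% to 7.32%). Ldhb itself was at 38.7 and 19.8 CPM in classical monocytes, 3.69 and 16.5 in dual-list neutrophils, and 8.38 and 9.71 in macrophages.

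Lactate leaves cells through the monocarboxylate transporters MCT4, from Slc16a3, and MCT1, from Slc16a1. Slc16a3 was highest in neutrophils of both libraries, at 1193 CPM (1066 to 1331), with an interval apart from that of dual-list neutrophils at 371 CPM in Control cells, and at 483 CPM (382 to 603), with an interval overlapping that of nonclassical monocytes at 435 CPM in ISO cells. Its directions differed between classes. In neutrophils Slc16a3 was lower in the ISO library, with 1193 and 483 CPM and a log2 ratio of -1.30 (-1.68 to -0.94). In macrophages it was higher, with 38.7 and 215 CPM in macrophages, and 35.0 and 121 in resident-list macrophages and log2 ratios of 2.48 (2.29 to 2.67) and 1.79 (1.49 to 2.10). Slc16a3 was also at 33.4 and 103 CPM in cDC2, 20.7 and 85.8 in T cells, and 17.7 and 55.9 in ILC2. Without cells with macrophage RNA it was at 22.1 and 25.7 CPM in T cells and 16.8 and 24.1 CPM in ILC2, where thinning gave a log2 ratio of -0.35.

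Slc16a1 was highest in the Control library in T cells at 65.6 CPM (49.7 to 85.0), with an interval apart from that of B cells at 24.7 CPM, and in the ISO library in classical monocytes at 21.2 CPM (19.2 to 23.3), with an interval overlapping that of nonclassical monocytes at 20.7 CPM. T cells had 65.6 and 15.6 CPM, with a log2 ratio of -1.76 (-5.15 to -0.15) on 2 ISO UMIs, while Slc16a1 was at 5.05 and 15.6 CPM in other macrophages, and 7.35 and 16 in macrophages. B and T cells of the Control library therefore had mostly the other transporter gene than the myeloid cells. Slc16a1 held 92.6% (87.7% to 96.0%) of the UMIs of both genes in Control B cells and 76% (64.7% to 85.1%) in Control T cells, against 16% (12.1% to 20.5%) in Control and 6.93% (5.87% to 8.11%) in ISO macrophages. Bsg, which encodes the chaperone that both transporters need and is not among the 37 genes, was higher in the ISO library in all 13 classes, with 198 and 283 CPM in macrophages, 126 and 277 in classical monocytes, and 151 and 352 in NK cells.

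The oxidative branch of the pentose phosphate pathway makes NADPH in the steps of G6pdx and Pgd, with Pgls between them, and its genes differed in their directions. G6pdx, the first and controlling step, was highest in the Control library in neutrophils at 78.3 CPM (48.5 to 119.7), with an interval overlapping that of classical monocytes at 54.1 CPM, and in the ISO library in resident-list macrophages at 40.3 CPM (31.6 to 50.6), with an interval overlapping that of nonclassical monocytes at 31.1 CPM. It stood at 78.3 and 12.4 CPM in neutrophils, 54.1 and 23.7 in classical monocytes, and 33.4 and 13 in cDC2, and the neutrophil value of the ISO library rests on 2 UMIs, with a log2 ratio of -2.37 (-5.80 to -0.63). In macrophages G6pdx was at 35.7 and 23.5 CPM, and in resident-list macrophages at 37.9 and 40.3 CPM. Pgls, the lactonase, was higher in the ISO library in 12 of 13 classes, with 22.4 and 118 CPM in neutrophils, 188 and 368 in B cells, and 119 and 190.3 in macrophages. Pgls was highest in the Control library in cDC2 at 232 CPM (189 to 281), with an interval overlapping that of cDC1 at 205 CPM, and in the ISO library in B cells at 368 CPM (275 to 483), with an interval overlapping that of cDC1 at 353 CPM. Pgd was highest in neutrophils of both libraries, at 451 CPM (374 to 539), with an interval apart from that of classical monocytes at 203 CPM in Control cells, and at 297 CPM (219 to 394), with an interval overlapping that of dual-list neutrophils at 247 CPM in ISO cells. In macrophages Pgd was at 112 and 203 CPM, higher in the ISO library, and in NK cells at 47.8 and 108 CPM, or 46.8 and 29.2 CPM without cells with macrophage RNA.

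The non-oxidative branch links ribose back to glycolysis, and its transaldolase comes from Taldo1. Taldo1 was highest in the Control library in neutrophils at 2397 CPM (2216 to 2590.1), with an interval apart from that of dual-list neutrophils at 786 CPM, and in the ISO library in cDC1 at 1427 CPM (1347 to 1510.4), with an interval apart from that of dual-list neutrophils at 642 CPM. In neutrophils Taldo1 was at 2397 and 607 CPM, with a log2 ratio of -1.97 (-2.30 to -1.67). The opposite held in macrophages, with 163 and 431 CPM in macrophages, 156 and 420.3 in resident-list macrophages, and 176 and 515 in other macrophages and a log2 ratio of 1.43 (1.28 to 1.58) in the resident-list cells. Dual-list neutrophils and classical monocytes had 786 and 642 CPM in dual-list neutrophils, and 746 and 598 in classical monocytes, while cDC1 had 775 and 1427 CPM. Tkt, the transketolase, was highest in the Control library in cDC2 at 493 CPM (429.8 to 562), with an interval overlapping that of nonclassical monocytes at 461 CPM, and in the ISO library in nonclassical monocytes at 777 CPM (691 to 870.0), with an interval overlapping that of cDC2 at 681 CPM. Tkt was higher in the ISO library in 12 of 13 classes, with 206 and 488 CPM in macrophages, and 268 and 575 in cDC1, and lower in B cells, with 114 and 70.8 CPM, or 112 and 36.2 CPM on 4 ISO UMIs and a log2 ratio of -1.47 without cells with macrophage RNA. Rpia, the ribose isomerase, was highest in B cells of both libraries, at 73.1 CPM (66.7 to 79.9), with an interval apart from that of NK cells at 46.9 CPM in Control cells, and at 120.4 CPM (70.1 to 193), with an interval overlapping that of T cells at 46.8 CPM in ISO cells. Rpe, the epimerase, was highest in cDC1 of both libraries, at 20.4 and 18.0 CPM, with intervals that overlap those of the next classes.

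Entry of pyruvate into mitochondria needs the carrier subunits Mpc1 and Mpc2, and few of the genes of this step differed by 2-fold. Mpc2 was past 2-fold in none of 13 classes, with 90.7 and 124 CPM in macrophages, 155 and 131 in classical monocytes, and 115 and 109 in T cells. Its highest levels were in the Control library in classical monocytes at 155 CPM (123 to 192), with an interval overlapping that of nonclassical monocytes at 152 CPM, and in the ISO library in cDC1 at 199.5 CPM (170.3 to 232), with an interval overlapping that of nonclassical monocytes at 166 CPM. Mpc1 had under 20 UMIs over both libraries in every class, with its highest levels in Control cDC2 (6.69 CPM on 3 UMIs) and ISO T cells (7.80 CPM on 1 UMI). Pdha1 and Pdhb encode the subunits of the first enzyme of the pyruvate dehydrogenase complex. Pdha1 was past 2-fold in none of 12 classes, with 36.6 and 47.2 CPM in macrophages, 75.8 and 69.9 in nonclassical monocytes, 69.1 and 44.2 in cDC2, and 51.5 and 35.4 in B cells. In lymphoid cells Pdha1 was lower in the ISO library, with 62.2 and 39.0 CPM in T cells, 66.7 and 45.2 in NK cells, and 96.4 and 60.9 in ILC2. These ISO values rest on 5, 5 and 24 UMIs. Without cells with macrophage RNA the log2 ratios of Pdha1 were -0.07 in B cells, -0.21 in T cells, -0.06 in NK cells and -0.63 in ILC2. Pdha1 was highest in the Control library in ILC2 at 96.4 CPM (77.2 to 119), with an interval overlapping that of nonclassical monocytes at 75.8 CPM, and in the ISO library in nonclassical monocytes at 69.9 CPM (46.1 to 102), with an interval overlapping that of ILC2 at 60.9 CPM. Pdhb was highest in the Control library in NK cells at 63.1 CPM (49.2 to 79.8), with an interval overlapping that of T cells at 49.5 CPM, and in the ISO library in cDC2 at 43.2 CPM (34.4 to 53.5), with an interval overlapping that of cDC1 at 40.9 CPM. In NK cells it was at 63.1 and 36.1 CPM, and in T cells, where the ISO value rests on 2 UMIs, at 49.5 and 15.6 CPM, with a log2 ratio of -1.36 (-4.76 to 0.28). Without cells with macrophage RNA Pdhb was at 63.1 and 58.3 CPM in NK cells and 44.2 and 25.7 in T cells.

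Pdk1 and Pdk3 encode kinases that switch the complex off. Pdk1 was highest in T cells of both libraries, at 96.7 CPM (77.1 to 119.7), with an interval apart from that of ILC2 at 54.3 CPM in Control cells, and at 70.2 CPM (32.1 to 133), with an interval overlapping that of ILC2 at 33.0 CPM in ISO cells. It was lower in the ISO library in T cells and ILC2, with 96.7 and 70.2 CPM in T cells, and 54.3 and 33.0 in ILC2, and higher in classical monocytes, with 3.87 and 25.1 CPM and a log2 ratio of 2.38 (0.84 to 5.75) on 2 Control UMIs. Without cells with macrophage RNA Pdk1 was at 57.5 and 20.7 CPM in ILC2 and 32.8 and 9.04 in B cells, with log2 ratios of -1.37 and -1.28 on 6 and 1 ISO UMIs. Pdk3 was highest in the Control library in cDC2 at 22.3 CPM (10.7 to 41.0), with an interval overlapping that of cDC1 at 22.2 CPM, and in the ISO library in cDC1 at 30.1 CPM (19.4 to 44.4), with an interval overlapping that of nonclassical monocytes at 28.5 CPM. Pdk3 stood at 3.69 and 15.5 CPM in dual-list neutrophils, 7.27 and 16.5 in resident-list macrophages, and 7.94 and 13.9 in macrophages. In B cells it had 79 Control UMIs, 12.0 CPM, and 0 ISO UMIs, where the floor of 3 UMIs is 21.2 CPM, so no fold can be given. Without Pdk3 and Aldoc, both at 0 UMIs in ISO B cells, 5 of 27 members were at least 2-fold higher and 0 lower in B cells, with a median of 0.45.

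**Figure D4:**
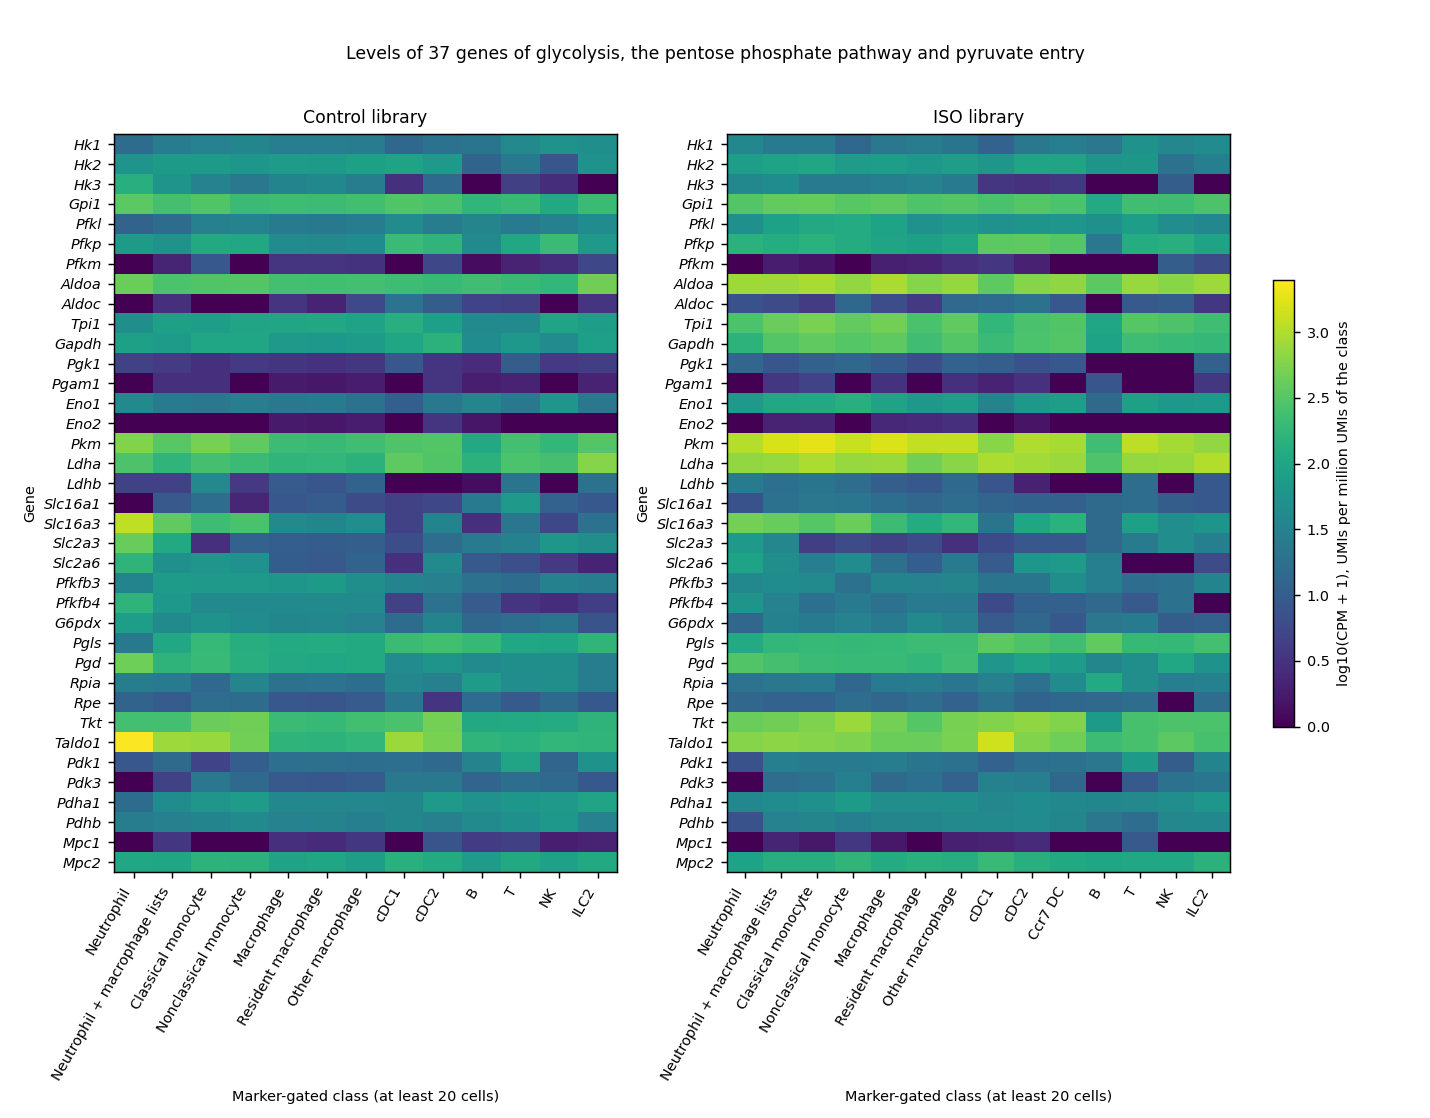
Levels of the 37 genes (vertical) in the classes with at least 20 cells (horizontal), as log10 of CPM plus 1, in the Control (left) and ISO (right) library. Among the classes shown, Taldo1 and Slc16a3 peak in Control neutrophils, at 2397 and 1193 CPM, and Pkm peaks in ISO classical monocytes at 1804 CPM. A macrophage subclass is not shown.

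Neutrophils of the libraries also differed in the genes that define the class. The 10 genes of the neutrophil list summed to 23259 and 9679 CPM, led by Retnlg at 9589.8 and 2956 CPM, with Ly6g at 0 in both libraries. The 4 genes of the check list, led by S100a9, summed to 101778 and 42947 CPM. Ribosomal protein genes took 2.64% of the UMIs of Control and 7.65% of those of ISO neutrophils. Beside these, Taldo1, Slc16a3, Slc2a3, G6pdx, Hk3 and Pfkfb4 were all at least 2-fold lower in ISO neutrophils, the 6 members counted lower there, and the part of the differing marker levels in these values was not tested. The ISO class held 28 cells.

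The 5 genes with the steepest levels between classes were also counted per cell, after each cell was thinned to 1000 UMIs to remove the difference in depth, with cells of fewer UMIs left out. Slc16a3 had a UMI in 60 of 100 neutrophils (60%, 49.7% to 69.7%) and 42 of 948 macrophages (4.43%, 3.21% to 5.94%) of the Control library, and in 13 of 28 neutrophils (46.4%, 27.5% to 66.1%) and 146 of 888 macrophages (16.4%, 14.1% to 19.0%) of the ISO library. As background, Slc16a3 was found in 3 of 1826 B cells (0.164%, 0.0339% to 0.479%) of the Control library. The unthinned median depths of these Control classes were 2611 UMIs in neutrophils, 6222 in macrophages and 3201 in B cells, and those of the ISO classes 4146 UMIs in neutrophils and 8377 in macrophages. Slc2a3 had a UMI in 33 of 100 neutrophils (33%, 23.9% to 43.1%) and 18 of 301 NK cells (5.98%, 3.58% to 9.29%) of the Control library. In the ISO library it had a UMI in 3 of 28 neutrophils (10.7%, 2.27% to 28.2%), over a background of 0 of 144 other macrophages (0%, 0% to 2.53%). ISO classical monocytes had 6 of 2100 (0.286%, 0.105% to 0.621%). Macrophages had a UMI of Slc2a3 in 9 of 948 (0.949%, 0.435% to 1.79%) of the Control and 1 of 888 (0.113%, 0.00285% to 0.626%) of the ISO cells. Pfkfb4 was found in 12 of 100 neutrophils (12%, 6.36% to 20%) and 40 of 948 macrophages (4.22%, 3.03% to 5.70%) of the Control library, over a background of 1 of 301 NK cells (0.332%, 0.00841% to 1.84%). In the ISO library Pfkfb4 was found in 2 of 28 neutrophils (7.14%, 0.877% to 23.5%) and 14 of 888 macrophages (1.58%, 0.865% to 2.63%). For Slc2a6 the Control shares were 12 of 100 neutrophils (12%, 6.36% to 20%) and 7 of 57 classical monocytes (12.3%, 5.08% to 23.7%), over 1 of 301 NK cells (0.332%, 0.00841% to 1.84%). The ISO shares were 4 of 28 neutrophils (14.3%, 4.03% to 32.7%) and 54 of 2100 classical monocytes (2.57%, 1.94% to 3.34%). Hk3 had a UMI in 9 of 100 neutrophils (9%, 4.20% to 16.4%) and in 0 of 1826 B cells (0%, 0% to 0.202%) of the Control library, and in 1 of 28 neutrophils (3.57%, 0.0904% to 18.3%) of the ISO library. Control NK cells and ISO other macrophages, named here as backgrounds, had median depths of 3414 and 6311 UMIs, and ISO classical monocytes had 8020.

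Beyond the 37 genes, 40 other genes of these pathways were listed and 37 of them were in the files. The shares over all genes given above for each class are the background of these counts, such as 8.41% higher and 18.4% lower in macrophages. In macrophages 2 of 21 were at least 2-fold higher and 3 lower, with a median log2 ratio of 0.14. In classical monocytes 3 of 19 were at least 2-fold higher and 4 lower, and in dual-list neutrophils 4 of 19 were at least 2-fold higher and 3 lower. In nonclassical monocytes 3 of 8 were at least 2-fold higher and 1 lower, in resident-list macrophages 0 of 20 were at least 2-fold higher and 0 lower, and in other macrophages 1 of 16 were at least 2-fold higher and 0 lower. In neutrophils 0 of 2 were at least 2-fold higher and 0 lower, in cDC1 0 of 11 were at least 2-fold higher and 0 lower, and in cDC2 3 of 13 were at least 2-fold higher and 0 lower. In B cells 5 of 20 were at least 2-fold higher and 1 lower, in T cells 2 of 7 were at least 2-fold higher and 2 lower, in NK cells 2 of 9 were at least 2-fold higher and 2 lower, and in ILC2 1 of 9 were at least 2-fold higher and 1 lower. Eno3, the muscle enolase, was at 253 and 122 CPM in nonclassical monocytes, and 51.1 and 14.6 in dual-list neutrophils. Slc16a7, which encodes MCT2, was lower in the ISO library, with 22.6 and 9.60 CPM in macrophages, and 14.8 and 7.36 in dual-list neutrophils, where Slc16a1 and Slc16a3 were higher in macrophages. Pgm2, a phosphoglucomutase, was at 3.87 and 13.8 CPM in classical monocytes, and 4.56 and 10.7 in macrophages. These genes were named after their values were seen.

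Pkm, Slc16a3 and Gapdh had the largest log2 ratios in macrophages, and the promoters of these 3 members are shown for that reason. The sequences are from RefSeq on build GRCm38.p6, from 250 bases before to 50 bases after each annotated start, and Pkm has 2 starts. Capitals mark ACGTG and GCGTG, the core sequences of the hypoxia response element, on either strand (CACGT and CACGC). Of 32851 RefSeq promoters of this length, 19.6% hold ACGTG, 32.4% hold GCGTG and 43.8% hold either. Promoters of 36 members were in the table, 51 in all, and 20 of them hold ACGTG, 31 GCGTG and 40 either. The first Pkm window holds 0 matches, the second 2, that of Slc16a3 2 and that of Gapdh 3, and a match is a description of these letters only.
Pkm chr9:59656326-59656625 plus strand: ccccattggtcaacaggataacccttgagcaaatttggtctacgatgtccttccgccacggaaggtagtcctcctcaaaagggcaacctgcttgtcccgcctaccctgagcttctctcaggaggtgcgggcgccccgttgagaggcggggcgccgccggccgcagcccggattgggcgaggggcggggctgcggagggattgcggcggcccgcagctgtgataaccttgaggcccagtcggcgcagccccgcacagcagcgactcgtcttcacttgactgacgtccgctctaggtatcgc
Pkm chr9:59656977-59657276 plus strand: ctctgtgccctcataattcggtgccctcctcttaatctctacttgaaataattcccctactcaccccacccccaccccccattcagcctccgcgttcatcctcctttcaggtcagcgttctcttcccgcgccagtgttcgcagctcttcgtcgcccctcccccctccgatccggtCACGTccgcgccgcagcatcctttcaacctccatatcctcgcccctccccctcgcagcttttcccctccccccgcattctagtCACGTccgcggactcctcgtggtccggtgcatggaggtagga
Slc16a3 chr11:120948817-120949116 plus strand: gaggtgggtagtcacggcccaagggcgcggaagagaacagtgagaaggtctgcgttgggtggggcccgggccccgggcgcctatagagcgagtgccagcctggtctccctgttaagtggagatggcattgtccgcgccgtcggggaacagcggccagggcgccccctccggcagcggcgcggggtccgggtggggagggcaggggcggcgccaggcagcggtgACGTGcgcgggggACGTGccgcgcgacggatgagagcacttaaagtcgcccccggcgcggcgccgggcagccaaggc
Gapdh chr6:125165724-125166023 minus strand: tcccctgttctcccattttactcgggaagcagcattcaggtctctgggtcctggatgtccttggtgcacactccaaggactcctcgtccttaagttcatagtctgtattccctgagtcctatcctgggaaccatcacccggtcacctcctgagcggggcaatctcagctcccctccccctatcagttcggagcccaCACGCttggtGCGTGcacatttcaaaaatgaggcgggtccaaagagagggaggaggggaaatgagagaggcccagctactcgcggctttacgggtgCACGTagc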

How the data were processed

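Droplet libraries of CD45+ cells from the hearts of Control and ISO mice were analysed, 1 library per group. The authors extracted barcodes with UMI-tools 1.0.0, aligned reads to mm10 with STAR 2.7.3a and counted with featureCounts 1.6.4, and the deposited values are raw UMI counts per gene and barcode, in the unit count, without normalization. The annotation, the strand setting and the treatment of reads with several matches are not given.

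The cell filters of the study were used (over 500 and under 6000 genes, under 25% mitochondrial UMIs, genes in 3 or more cells). A cell was positive for a marker list with at least 3 of its genes and a mean log2(1 + UMIs per 10000) of at least 50% of the median of its reference cells, which have a UMI of at least 50% of the list's genes. Macrophage and monocyte lists form 1 lineage and dendritic cell lists another, with the highest relative score deciding within them. No doublet caller was run, and barcodes positive for 2 lineages were left out except dual-list neutrophils. UMIs were summed per class and library, with classes described from 20 cells and compared from 20 cells and 100000 UMIs in each library. Ratios used 0.5 added UMI and genes with at least 20 UMIs over both libraries. Intervals are exact Poisson for levels and Clopper-Pearson for shares and ratios.

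Values are given, for each class, for the 5 members that lead the log2 ratios in each direction, of those at 50 CPM or more in the higher library. They are also given for each member in its highest class of those ranked. A macrophage subclass is not reported here. The members and lists were chosen with earlier results of these data known. Of the alternatives, 13 were planned (scaling, cell weight, depth, gate limits, barcodes of 2 lineages, cells with the most UMIs, free RNA, UMI minimum, mitochondrial filter, added UMI) and 3 were chosen after seeing the data (totals without Gm26924; members with 0 UMIs in 1 library left out; B, T, NK and ILC2 cells with UMIs of at least 3 macrophage genes left out). Copies of transcripts were searched with BLAST+ 2.17.0 at an identity of at least 97% over at least 90 bases in GENCODE release 21. Python 3.11.15, numpy 2.4.6, scipy 1.17.1, pandas 2.3.3 and matplotlib 3.10.9 were used, and the summing and ratio steps were tested on simulated data.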

Additional observations from a re-analysis of the deposited data

Results flagged for a closer look

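Some members stood in opposite directions in different classes, past 2-fold in both, and no such difference between classes was tested, since each class has 1 library per group. Ldhb had a log2 ratio of -1.0002 in classical monocytes and 2.04 in dual-list neutrophils, on 20 and 6 Control UMIs. Slc16a1 had -1.76 in T cells, on 2 ISO UMIs, and 1.61 in other macrophages, on 12 Control UMIs. Slc16a3 had -1.30 in neutrophils and 2.08 in T cells, but without T cells that held macrophage RNA it had 17 and 2 UMIs, too few for a ratio; it had 2.48 in macrophages. Slc2a6 had -1.10 in classical monocytes and 1.04 in other macrophages. Centred on the median of all genes, 1 member was at least 2-fold lower in classical monocytes, and Ldhb and Slc2a6 were then under 2-fold there. Taldo1 had -1.97 in neutrophils and 1.55 in other macrophages.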

How the results depend on the processing

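No paired analysis was possible because each group has 1 library. The members' median was above 0 under every alternative in every class except neutrophils, but in classical monocytes it was 0.01 and in NK cells 0.22 with cells thinned to 1000 UMIs, and in T cells 0.15 without cells with macrophage RNA. Of the medians, 192 of 194 moved by less than the median counting interval of single members. That interval is wide for a median, so this count does not show stable medians: that of T cells fell from 0.82 to 0.15 within it. Counts of members at least 2-fold higher stayed within 1.5 times the reported count in 171 of 194 cases, and counts lower, most of them of 0 to 6 members, in 155 of 194. Of single members, 1247 of 1355 log2 ratios, 717 of 812 levels and 4078 of 4380 isoform shares stayed within their counting intervals. With cells thinned to 1000 UMIs alone, 44 of 105 log2 ratios, 31 of 74 levels and 228 of 492 shares moved past them.

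With each cell weighted alike, 2 of 20 in neutrophils and 2 of 23 in ILC2 were higher, and 2 of 31 in resident-list macrophages and 1 of 23 in ILC2 were lower. With cells thinned to 1000 UMIs, 0 of 9 in neutrophils, 4 of 10 in nonclassical monocytes, 9 of 16 in other macrophages, 4 of 10 in T cells and 1 of 11 in ILC2 were higher, 0 of 10 in nonclassical monocytes, 3 of 22 in resident-list macrophages, 0 of 16 in other macrophages, 0 of 13 in cDC2, 4 of 25 in B cells, 0 of 10 in T cells and 3 of 13 in NK cells were lower, the median was -1.01 in neutrophils, the median was 1.11 in cDC1, and 42 of 74 highest classes were as reported. With a gate limit of 60%, 7 of 21 in neutrophils were higher, and 1 of 34 in dual-list neutrophils, 2 of 35 in classical monocytes and 1 of 30 in cDC2 were lower. With a gate limit of 40%, 1 of 23 in ILC2 were higher, and 2 of 31 in resident-list macrophages, 1 of 29 in cDC2, 2 of 29 in B cells, 2 of 21 in NK cells and 1 of 23 in ILC2 were lower. With barcodes of 2 lineages kept, 13 of 33 in neutrophils, 8 of 27 in cDC1 and 10 of 31 in B cells were higher, 0 of 30 in nonclassical monocytes, 1 of 37 in macrophages and 2 of 28 in ILC2 were lower, and 49 of 74 highest classes were as reported. With a minimum of 10 UMIs, 7 of 25 in neutrophils were higher, and 1 of 27 in NK cells and 1 of 28 in ILC2 were lower. With a minimum of 50 UMIs, 2 of 12 in neutrophils, 6 of 14 in T cells and 3 of 17 in ILC2 were higher, and 1 of 19 in nonclassical monocytes, 0 of 26 in other macrophages, 0 of 22 in cDC2 and 1 of 14 in T cells were lower. Centred on the median of all genes, 1 of 34 in dual-list neutrophils, 1 of 35 in classical monocytes and 1 of 23 in ILC2 were lower. Without the 5% of cells with the most UMIs, 0 of 23 in ILC2 were higher, and 2 of 31 in resident-list macrophages, 3 of 29 in B cells and 2 of 23 in ILC2 were lower. With 5% free RNA subtracted, 3 of 22 in cDC1 were higher, and 4 of 29 in B cells and 1 of 23 in ILC2 were lower. Over totals without mitochondrial and ribosomal protein genes, 8 of 29 in B cells were higher. With under 10% mitochondrial UMIs, 8 of 29 in B cells were higher, and 3 of 29 in B cells were lower. With 1 UMI added, 0 of 29 in B cells were lower. Without lymphoid cells with macrophage RNA (chosen after seeing the data), 3 of 29 in B cells, 4 of 21 in T cells and 1 of 23 in ILC2 were higher, and 4 of 29 in B cells, 1 of 21 in T cells and 1 of 23 in ILC2 were lower. Thinning to 2000 UMIs gave shares of cells with a UMI of 57.0% for Slc2a3 in Control neutrophils, 2.48% for Slc2a3 in Control other macrophages, 83.7% for Slc16a3 in Control neutrophils, 22.1% for Hk3 in Control neutrophils, 9.59% for Hk3 in Control dual-list neutrophils, 9.40% for Hk3 in ISO dual-list neutrophils, 24.4% for Pfkfb4 in Control neutrophils, 0% for Pfkfb4 in Control ILC2 and 27.9% for Slc2a6 in Control neutrophils. Among the log2 ratios that turned in sign were those of Ldha in neutrophils, -1.14 when thinned to 1000 UMIs, of Slc16a3 in ILC2, -0.35 when thinned, and, without cells with macrophage RNA, of Tpi1 in T cells, -0.39, Pgd in NK cells, -0.38, Pfkl in NK cells, -0.46, and Eno1 in NK cells, -0.23. The cause of these differences was not tested. Shares over all genes are given above for centring and for lymphoid cells without macrophage RNA. The counts under the other alternatives have no such background beside them. The minimum of 100000 UMIs for a compared class was not applied to the alternatives: most classes were under it with thinning, neutrophils with a gate limit of 40%, NK cells with a gate limit of 60% and without the 5% of cells with the most UMIs, and T and NK cells without cells with macrophage RNA. Members with 0 UMIs in 1 library left out (chosen after seeing the data), 9 of 33 in classical monocytes and 5 of 27 in B cells were higher, and 4 and 0 lower. With barcodes of 2 lineages kept there is no class of dual-list neutrophils, so that alternative gave no value for it. Of the named ratios under 2-fold, signs also turned, among others, for Slc2a6 in nonclassical monocytes and Hk1 in NK cells with each cell weighted alike, for Pfkp and Pdha1 in NK cells with thinning, for Tkt and Gpi1 in B cells and Pdk1 in T cells with barcodes of 2 lineages kept, and for Pdhb, Hk1 and Slc2a3 in NK cells without cells with macrophage RNA.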
